A study of Homo sapiens with 8 samples.

Results

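The bone morphogenetic protein (BMP) signal and its ID targets were followed through 10 genes, the ligands BMP2, BMP4 and BMP7, the target genes ID1, ID2, ID3 and ID4, and the inhibitors SMAD6, SMAD7 and BAMBI. They were picked by gene symbol, all 10 were found among the 58828 genes of the count tables, and the list was proposed with results of these same libraries in view. The difference between PAGE4 and vector cells, on which BMP4 stood out, is therefore counted as used for the choice and the members are described below without a test on it. For the other contrasts a p-value is given over all genes, and it is not independent evidence on genes chosen in this way.

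RNA was sequenced from 22RV1 and DU145, which are established human prostate cancer cell lines, the first with luminal and the second with basal or mesenchymal features. Each line was a lentiviral pool that carried either the empty doxycycline-inducible vector or the same vector with PAGE4, a cancer/testis antigen of the prostate, and was selected with puromycin. Both kinds of cells received doxycycline and were grown with fetal bovine serum. Cells were then treated with PBS or with 200 mM H2O2 for 12 h before collection. The groups were thus vector with PBS, vector with H2O2, PAGE4 with PBS and PAGE4 with H2O2 in each line, with 1 library per condition and no replicate of any of them.

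Total counts ranged from 25482984 to 43310401 per library, and within each line and construct the H2O2 library had the lower total. PAGE4 had 0 or 1 read in the 4 vector libraries and between 1001 and 1489 reads in the 4 PAGE4 libraries. The 5 luminal markers KLK3, KLK2, HOXB13, TMPRSS2 and FOLH1 were higher in every 22RV1 library than in any DU145 library, with a summed normalized count of 4869 to 13033 against 3.80 to 9.05. Of the 5 DU145 markers, VIM, CAV1 and ANXA1 were lower in every 22RV1 library, whereas CD44 and LGALS1 overlapped between the lines. All 5 luminal markers had fewer reads with H2O2 than with PBS in both 22RV1 pairs, KLK2 for example 553 against 2402 in vector cells and 603 against 2871 in PAGE4 cells, and the part of this shift in the H2O2 results below was not tested.

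BMP ligands are secreted dimers that bind type I and type II serine/threonine kinase receptors. The activated type I receptor phosphorylates SMAD1, SMAD5 and SMAD9, which enter the nucleus with SMAD4 and switch on target genes, the ID genes foremost among them. ID proteins lack a DNA-binding region and hold E proteins away from DNA, which keeps cells from differentiating. SMAD6, SMAD7 and the pseudoreceptor BAMBI are themselves targets that dampen the signal, and in the prostate the BMP and TGF-beta signals are known for their part in duct growth and in bone metastasis.

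The bases before the transcription start are shown for the members on which the results turn, SMAD6 as the member called lower with H2O2 in both lines, ID1 as the member whose response to H2O2 differed most clearly between the lines, ID4 as the target read in 22RV1 only, and BAMBI for its repeated GC-rich core. RefSeq on GRCh38.p14 gave windows for 8 of the 10 members, BMP2 and BMP7 having no entry. Each is 250 bases long, runs 5′ to 3′ on the plus strand up to the base before the start, and lies at chr15:66701986-66702235 (SMAD6), chr20:31605039-31605288 (ID1), chr6:19837120-19837369 (ID4) and chr10:28677271-28677520 (BAMBI). Capitals mark the motifs found on either strand, namely the palindromic SMAD site GTCTAGAC, the core GGCGCC of BMP response elements, the TATA box TATAAA and the CCAAT box CCAAT, which reads ATTGG on the other strand.
SMAD6: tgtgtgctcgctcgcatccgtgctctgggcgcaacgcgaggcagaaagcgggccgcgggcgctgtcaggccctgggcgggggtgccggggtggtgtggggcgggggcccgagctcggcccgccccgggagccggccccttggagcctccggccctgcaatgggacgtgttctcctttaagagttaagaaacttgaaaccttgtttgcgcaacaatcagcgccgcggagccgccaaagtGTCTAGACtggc
ID1: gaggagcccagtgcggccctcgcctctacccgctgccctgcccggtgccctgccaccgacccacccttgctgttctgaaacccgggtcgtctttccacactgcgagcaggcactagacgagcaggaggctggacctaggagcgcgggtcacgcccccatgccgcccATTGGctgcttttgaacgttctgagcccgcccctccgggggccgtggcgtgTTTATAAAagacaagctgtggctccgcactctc
ID4: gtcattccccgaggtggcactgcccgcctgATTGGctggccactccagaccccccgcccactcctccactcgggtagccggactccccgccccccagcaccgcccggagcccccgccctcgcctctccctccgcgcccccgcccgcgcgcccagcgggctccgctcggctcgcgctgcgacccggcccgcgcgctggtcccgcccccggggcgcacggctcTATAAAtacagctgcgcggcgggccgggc
BAMBI: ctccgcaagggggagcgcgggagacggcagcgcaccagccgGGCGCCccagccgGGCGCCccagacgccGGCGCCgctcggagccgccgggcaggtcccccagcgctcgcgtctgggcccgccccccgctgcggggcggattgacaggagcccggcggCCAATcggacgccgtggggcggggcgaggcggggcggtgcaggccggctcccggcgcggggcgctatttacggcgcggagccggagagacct
The SMAD palindrome was present in the SMAD6 window alone among the 8 members with an entry, and 64 of 35116 windows of the same length (0.182%) held it. GGCGCC was present 3 times in the BAMBI window and in 1 of the 3 BMP4 windows, against 16.4% of all windows. A TATA box was present for ID1 and ID4 and in 1 of the 3 SMAD7 windows (10.7% of all windows), and in ID1 matches on the opposite strands overlap. CCAAT was present for ID1, ID2, ID4 and BAMBI (32.0% of all windows), and the ID3 window held none of the 4 motifs. These are matches of letters in a short window and not binding sites.

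**Figure D1:**
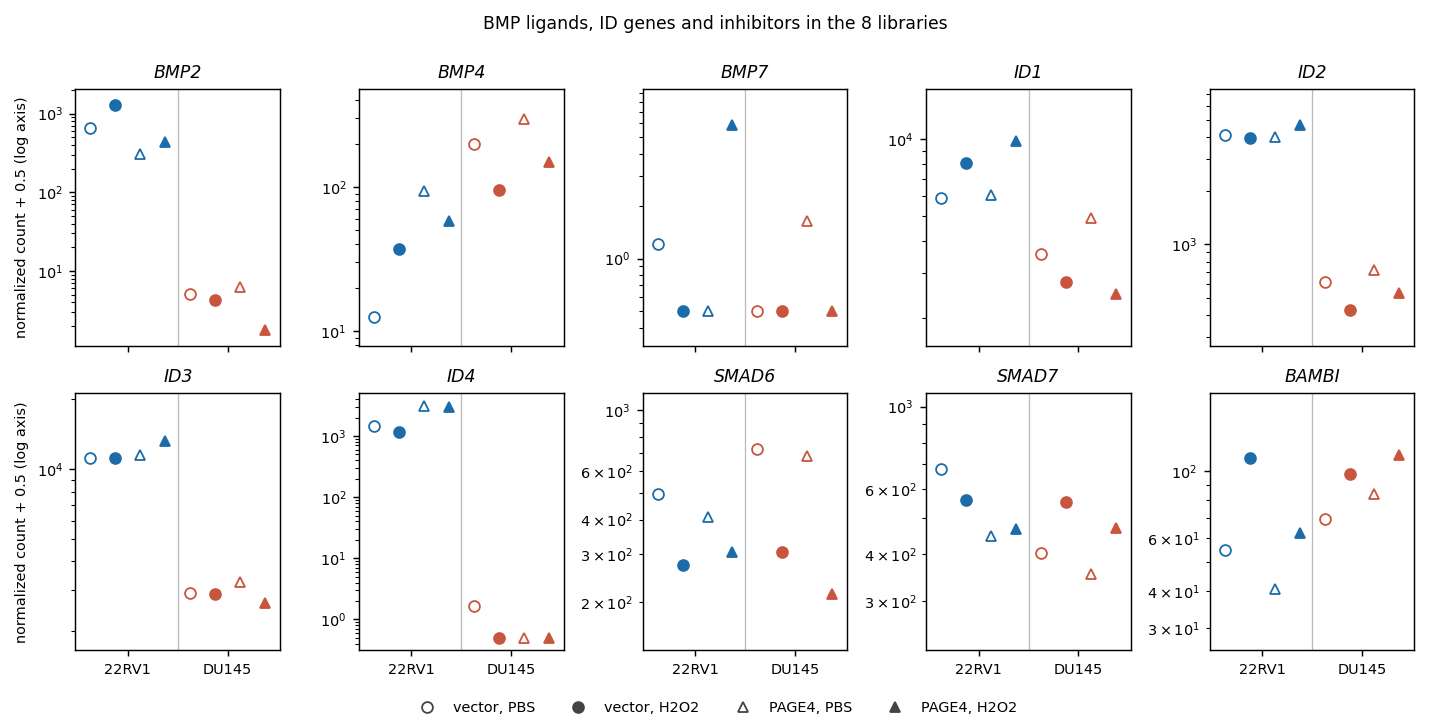
Normalized read count plus 0.5 of each member (log axis, own range per panel) in the 8 libraries, 22RV1 on the left in blue and DU145 on the right in red, with circles for vector, triangles for PAGE4, open symbols for PBS and filled symbols for H2O2. Each point is 1 library. ID2, ID3 and ID4 lie higher in all 22RV1 libraries than in all DU145 libraries. BMP4 lies lower in 22RV1 with this scaling, though the nearest values are close. The SMAD6 points with H2O2 lie below those with PBS in each line and construct.

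Counts were scaled by TMM over the 8 libraries, and these values are called normalized counts. The edgeR quasi-likelihood test with Benjamini-Hochberg adjustment over 19784 genes took pairs of libraries as blocks. Its error is thus the spread between pairs, and pairs from the same line are not independent cultures. The H2O2 fits for a single line shared 1 spread estimated over all 8 libraries, so the other line also affects these p-values. The pairs of a line are vector and PAGE4, so this spread includes any difference between the constructs. BMP7 did not pass the filter on low counts, and BMP2 and ID4 passed only through 22RV1, so 9 members were tested. Between the lines 6 of 9 members passed an adjusted p of 0.05, while 63.0% of all genes did. BMP2 and ID4, which passed the filter through 22RV1 alone, had to differ, so their calls carry no weight here. With H2O2, 4 of 9 members passed in 22RV1 (all genes 32.6%) and 5 of 9 in DU145 (all genes 42.1%). The H2O2 response differed between the lines for 3 of 9 members (all genes 21.0%), and the response common to the 4 pairs was called for 1 of 9 (all genes 22.5%). Nothing particular to the members is read from these shares, and the directions in the lines were as follows. Of the called members 3 rose and 1 fell in 22RV1 (all genes 2538 and 3905), whereas 1 rose and 4 fell in DU145 (all genes 4086 and 4252). The 22RV1 split depends on the scaling. With total counts 5 called members rose and 1 fell there, and 4262 of all genes rose and 2384 fell. The median log2 change of the tested members was 0.11 in 22RV1 (all genes -0.06) and -0.67 in DU145 (all genes -0.01). The DU145 median was -0.48 over the 7 members other than BMP2 and ID4, whose few reads there fix no fold.

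Single pairs of libraries were also compared by fold, with a limit of 1.5-fold and no test, over the 19992 genes whose normalized count averaged at least 10. BMP7 averaged less than 10 and was not counted. Of the other members, H2O2 moved 4 past the limit in 22RV1 vector cells (all genes 37.8%) and 3 in 22RV1 PAGE4 cells (30.3%). It moved 3 in DU145 vector cells (42.3%) and 4 in DU145 PAGE4 cells (42.9%). In DU145 vector cells this count includes ID4 with 0 against 1 read, and in DU145 PAGE4 cells BMP2 with 1 against 5 reads, neither of which is read as a change. Intervals given for a pair are exact 95% intervals of counting error only, since there was 1 library per condition. They take reads as independent molecules and are too narrow where reads are not.

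BMP2, a ligand that drives bone formation and is encoded on chr20:6767686-6780246 (GRCh38, GENCODE release 44, as for the genes that follow), was a gene of 22RV1 cells. With the empty vector in 22RV1 its normalized count was 656.7 after PBS and 1278 after H2O2, and with PAGE4 it was 305.5 after PBS and 435.1 after H2O2. The 4 DU145 libraries held 1 to 5 reads each, so the groups did not overlap. Summed over each line, the normalized ratio of 22RV1 to DU145 was 175 (95% interval 102 to 330). This interval covers counting error only and not the spread between the libraries of a line. Since BMP2 passed the filter through 22RV1 alone, the ratio is a description of the counts. With H2O2 the BMP2 count rose in 22RV1 by 0.75 on the log2 scale (SE 0.17, edgeR adjusted p = 0.00216), 1.95-fold in vector cells and 1.42-fold in PAGE4 cells. Without the vector pair the adjusted p was 0.283, so the call rests on that pair. The DU145 counts of BMP2 were too low for a response to be read.

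BMP4, a ligand that restrains the branching of prostate ducts (chr14:53949736-53958761, minus strand), was a gene of DU145 cells. In 22RV1 its normalized count was 12.1 (PBS) and 36.4 (H2O2) with the vector, and 92.7 (PBS) and 57.4 (H2O2) with PAGE4. In DU145 the corresponding values were 198.0, 95, 297.8 and 148.5. Every DU145 library was above every 22RV1 library with this scaling, although the nearest values, 95 and 92.7, were close. With total counts the order of these nearest libraries turned, so the lines overlapped there. The line difference was -2.02 on the log2 scale (22RV1 minus DU145, SE 0.45, edgeR adjusted p = 0.0049).

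With H2O2, BMP4 fell by 1.03 on the log2 scale in DU145 (SE 0.33, edgeR adjusted p = 0.0170), 2.08-fold lower in vector cells and 2.00-fold lower in PAGE4 cells. This call was lost when either DU145 pair was left out (adjusted p of 0.151 without the PAGE4 pair and 0.105 without the vector pair) and with the DESeq2 Wald test (0.0656). In 22RV1 the pairs went opposite ways, 2.93-fold higher in vector cells (17 against 46 reads) and 1.61-fold lower in PAGE4 cells (118 against 53 reads), and the fitted value of 0.20 did not pass (edgeR adjusted p = 0.749), but was 1.58 and passed without the PAGE4 pair (0.00847). The difference between the lines, 1.23, did not pass either (edgeR adjusted p = 0.0997), but passed without the 22RV1 PAGE4 pair and with no filter on low counts (0.0348).

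BMP7, a ligand of kidney and epithelium (chr20:57168753-57266641, minus strand), had 0, 1 or 5 reads per library. Only the 22RV1 PAGE4 library with H2O2, with 5 reads, was over the floor of 3 reads, so no difference in BMP7 can be read at this depth.

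The 4 ID genes encode the HLH proteins that bind E proteins, and ID1, ID2 and ID3 led the members in 22RV1, and ID1, ID3 and ID2 in DU145. Per kilobase of exon, the mean normalized count in 22RV1 was 7869 for ID3, 6033 for ID1, 1896 for ID2 and 565 for ID4, and BMP2 (189), SMAD7 (136), SMAD6 (43.2), BAMBI (31.1), BMP4 (16.0) and BMP7 (0.282) followed. In DU145 the order began with ID1 (2785) and ID3 (1961), then ID2 (259), SMAD7 (113), BMP4 (59.7), SMAD6 (56.2) and BAMBI (42.4), and ended with BMP2 (1.08), ID4 (0.0730) and BMP7 (0.0528). Over the libraries of a line the ranges of the neighbours ID3 and ID1 overlapped in both lines. In 22RV1 the neighbours from ID4 to BMP2, BMP2 to SMAD7, SMAD6 to BAMBI and BAMBI to BMP4 overlapped as well, and in DU145 those from SMAD7 down to BAMBI and the pair of ID4 and BMP7, so their order does not exceed the spread.

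**Figure D2:**
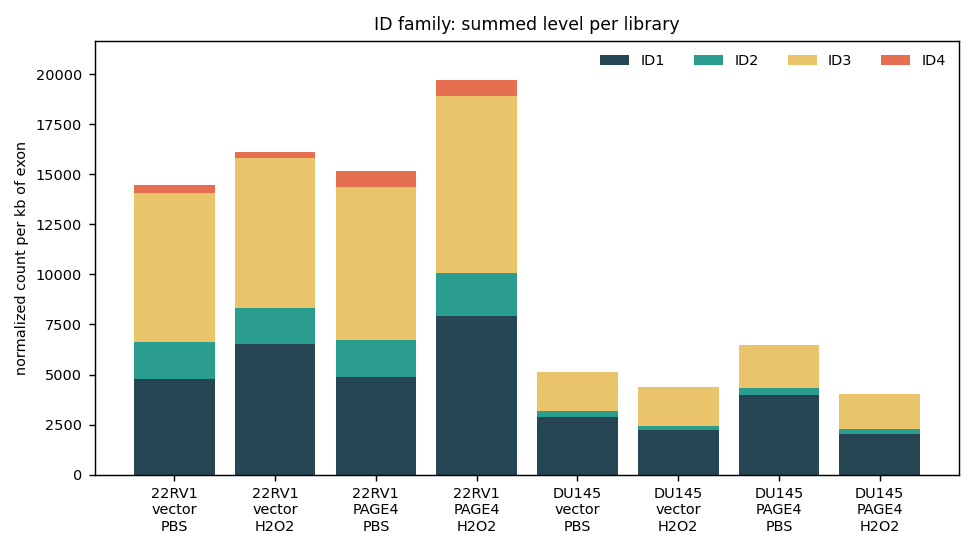
Stacked level of ID1, ID2, ID3 and ID4 in each of the 8 libraries, as normalized count per kilobase of exon (linear axis from 0), 1 bar per library. The summed level is 14466 to 19708 in 22RV1 and 4026 to 6500 in DU145, with ID3 the largest block in 22RV1 and ID1 in DU145.

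ID1, on chr20:31605283-31606515, had normalized counts of 5879 in 22RV1 vector cells with PBS, 8052 with H2O2, 6030 in PAGE4 cells with PBS and 9794 with H2O2. In DU145 the corresponding values were 3563, 2770, 4914 and 2488. The lines did not overlap, and H2O2 libraries were higher than PBS libraries in 22RV1 but lower in DU145. ID1 rose with H2O2 in 22RV1 by 0.58 on the log2 scale (SE 0.11, edgeR adjusted p = 0.000252), 1.37-fold in vector cells and 1.62-fold in PAGE4 cells. It fell in DU145 by 0.67 (SE 0.11, edgeR adjusted p = 4.19e-05), 1.29-fold lower in vector cells and 1.97-fold lower in PAGE4 cells. The difference between the lines was 1.25 (SE 0.15, edgeR adjusted p = 6.07e-06) and passed under all 9 alternatives, with adjusted p up to 0.000196. Between the lines ID1 was higher in 22RV1 by 1.13 (SE 0.26, edgeR adjusted p = 0.0058).

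ID2, on chr2:8678845-8684461, had normalized counts of 4121, 3970, 4030 and 4665 in 22RV1 (vector with PBS, vector with H2O2, PAGE4 with PBS, PAGE4 with H2O2) and 616, 427, 718 and 529 in DU145. All 22RV1 values were higher, by 2.89 on the log2 scale (SE 0.15, edgeR adjusted p = 2.96e-06). ID2 fell with H2O2 in DU145 by 0.48 (SE 0.11, edgeR adjusted p = 0.00104), lower in both pairs. In 22RV1 the value was 0.08 (edgeR adjusted p = 0.556), and the difference between the lines was 0.56 (SE 0.14, edgeR adjusted p = 0.00696). That difference did not pass without the 22RV1 PAGE4 pair (0.0513). ID2-AS1, which overlaps an ID2 exon on the other strand, reached a normalized count of 84.1, and since the strand of counting is not given, reads of such partners cannot be told apart. ENSG00000287156 and LNC-LBCS overlap exons of BMP4 and ID4 in the same way.

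ID3, on chr1:23557926-23559501 (minus strand), had no H2O2 call in either line. Its normalized counts were 11162, 11181, 11464 and 13282 in 22RV1 and 2929, 2881, 3276 and 2646 in DU145, in the order given for ID2. The lines did not overlap and differed by 2.00 on the log2 scale (SE 0.12, edgeR adjusted p = 5.46e-06). With H2O2 the values were 0.11 in 22RV1 (edgeR adjusted p = 0.354) and -0.17 in DU145 (edgeR adjusted p = 0.133), neither past the threshold, and the difference of 0.27 between the lines did not pass (edgeR adjusted p = 0.114). The difference passed without the 22RV1 vector pair (0.0208) and without the DU145 vector pair (0.0381), and without that DU145 pair the DU145 value was -0.35 and passed (0.0419). Scaling by total counts, which moves the median log2 fold of all genes in the 22RV1 pairs by 0.17 and 0.15, brings ID3 in 22RV1 to 0.28 (0.0148), ID2 to 0.25 (0.0381) and the ID3 difference past the threshold (0.020).

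ID4, on chr6:19837370-19842197, was read in 22RV1 only, with 2034 reads in vector cells with PBS, 1485 with H2O2, 3966 in PAGE4 cells with PBS and 2788 with H2O2. The 4 DU145 libraries together held 1 read. The ratio of normalized sums was 7044, with a counting interval from 1264 to 278266 that shows how little 1 read fixes it. The normalized ID4 counts in 22RV1 were 1450, 1176, 3115 and 3017 in the order given for ID2. With H2O2 the value in 22RV1 was -0.17 (edgeR adjusted p = 0.271), and both PAGE4 libraries were above both vector libraries.

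The makeup of the ID family moved with line and treatment. ID3 took 45.0 to 51.6% of the summed per-kilobase level in 22RV1 and 33.7 to 44.1% in DU145, and ID1 took 32.2 to 40.6% and 50.1 to 61.3%. The share of ID2 was 10.7 to 12.9% in 22RV1 and 4.42 to 5.94% in DU145, and that of ID4 in 22RV1 was 1.89 to 5.30%. In 22RV1 the ID1 share was 33.0% in vector cells and 32.2% in PAGE4 cells with PBS, and 40.6% and 40.3% with H2O2. In DU145 it was 56.4% and 61.3% with PBS, and 51.5% and 50.1% with H2O2. The H2O2 shares of ID1 thus lie above the PBS shares in 22RV1 and below them in DU145, without overlap. These shares were not tested.

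SMAD6, the inhibitory SMAD that competes with SMAD4 for SMAD1 (chr15:66702236-66782849), fell in every pair with H2O2. Its normalized counts were 495.5, 272.5, 406.8 and 303.0 in 22RV1 and 720.6, 304.1, 683.9 and 213.2 in DU145, in the order given for ID2. All H2O2 values were below all PBS values in each line. The response common to the 4 pairs was -1.05 on the log2 scale (SE 0.21, edgeR adjusted p = 0.0128), which made SMAD6 the only member called there, and it was lost without the DU145 vector pair (0.0598). SMAD6 fell by 0.65 in 22RV1 (SE 0.17, edgeR adjusted p = 0.00547) and by 1.46 in DU145 (SE 0.17, edgeR adjusted p = 1.16e-06). In single pairs it was 1.82-fold and 1.34-fold lower in 22RV1 vector and PAGE4 cells, and 2.37-fold and 3.20-fold lower in the DU145 pairs. Without the 22RV1 vector pair the 22RV1 call was lost (0.163). The fall was larger in DU145, by 0.81 (SE 0.24, edgeR adjusted p = 0.0217), a difference lost without the 22RV1 PAGE4 pair (0.0921) or the DU145 PAGE4 pair (0.214). The lines themselves overlapped in SMAD6 and differed by -0.25 (edgeR adjusted p = 0.354).

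SMAD7, the inhibitory SMAD that brings SMURF ligases to the receptors (chr18:48919853-48950965, minus strand), had normalized counts of 678.1, 559.2, 448.4 and 466.5 in 22RV1 and 403.8, 552.4, 352.8 and 470.8 in DU145. The lines overlapped (0.27, edgeR adjusted p = 0.198), and with total counts their difference passed (0.48, 0.0281). In DU145 both H2O2 values were above both PBS values, and SMAD7 rose by 0.43 (SE 0.15, edgeR adjusted p = 0.0285), a call lost without the PAGE4 pair (0.226), without the vector pair (0.296) and with the DESeq2 Wald test (0.0887). In 22RV1 the value was -0.12 (edgeR adjusted p = 0.594), and the difference of -0.55 between the lines did not pass (edgeR adjusted p = 0.0739), except without the 22RV1 PAGE4 pair (-0.71, 0.0175). SMAD6 and SMAD7 thus went opposite ways with H2O2 in DU145.

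BAMBI, a receptor-like protein without a kinase domain (chr10:28677510-28682932), was among the low members, with 51 to 139 reads in 22RV1 and 61 to 89 in DU145. Its normalized counts were 54.2, 110.1, 40.1 and 61.7 in 22RV1 and 69.0, 97.6, 83.6 and 112.9 in DU145. Each H2O2 library was above its PBS partner. The rise in 22RV1 was 0.84 on the log2 scale (SE 0.31, edgeR adjusted p = 0.0459), close to the threshold and lost with the DESeq2 Wald test (0.151), with no filter (0.0517), without the 22RV1 vector pair (0.427) and without the DU145 PAGE4 pair (0.0561). In DU145 the value was 0.47 (edgeR adjusted p = 0.251) and the response common to the pairs did not pass (edgeR adjusted p = 0.0767), though it did with the DESeq2 Wald test (0.0468).

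**Figure D3:**
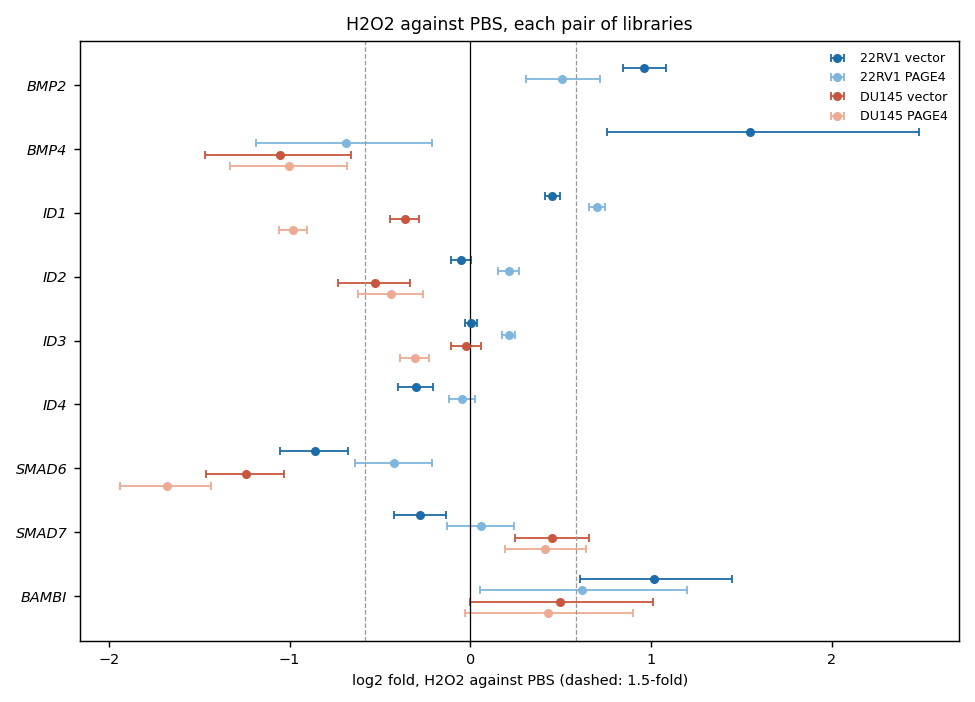
Log2 fold of the normalized count, H2O2 against PBS, for the 4 pairs of libraries, with exact 95% intervals of counting error. Dashed lines mark 1.5-fold, and BMP7 in all pairs and BMP2 and ID4 in DU145 are left out for want of reads. SMAD6 lies below 0 in all 4 pairs, and ID1 lies above 0 in 22RV1 and below 0 in DU145.

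Other genes of the pathway were taken from 7 lists of ligands, receptors, SMADs and their regulators, extracellular antagonists, further targets, E proteins and the TGF-beta branch. Of 66 listed genes 50 passed the filter. With H2O2, 21 of them passed the edgeR test in 22RV1 (10 higher and 11 lower) and 29 in DU145 (19 higher and 10 lower), and 11 differed between the lines, where 32.6%, 42.1% and 21.0% of all genes did. The shares of each list below are to be read beside the same 3 values, and no list was tested against other genes. The median log2 change of the 50 genes was -0.18 in 22RV1 (all genes -0.06) and 0.19 in DU145 (all genes -0.01). Only 41 of the 50 had a normalized count that averaged at least 10 in each line. These medians thus include folds that rest on few reads, and they are not set against the medians of the members.

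Of the other ligands, 3 of 6 tested were called in each line. BMP6, a ligand of iron control, rose by 1.38 in 22RV1 (SE 0.26) and by 0.97 in DU145 (SE 0.24), and BMP5 fell by 2.1 in DU145 (SE 0.39, 255.6 and 134.0 with PBS against 48.1 and 39.3 with H2O2). BMP8B fell in both lines, by 0.69 and 1.15, and it has a near copy, BMP8A, whose share of its reads was not tested. GDF6 rose in 22RV1 by 1.61 (SE 0.56) and had at most 1 read in a DU145 library.

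Among receptors 1 of 7 was called in 22RV1 (all genes 32.6%) and 5 of 7 in DU145 (all genes 42.1%), 4 higher and 1 lower. ACVR2B, a type II receptor, fell by 0.50 in 22RV1 and rose by 0.61 in DU145, and this difference passed (edgeR adjusted p = 0.000258). BMPR2, the main type II receptor of BMPs, fell by 0.79 in DU145 (SE 0.10), from 1707 to 927 in vector cells and from 1419 to 879 in PAGE4 cells. BMPR1B and ACVR1, both type I receptors, rose there by 0.43 and 0.64.

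Of the SMADs and their regulators, 4 of 8 were called in 22RV1 (2 higher, 2 lower) and 6 of 8 in DU145 (5 higher, 1 lower). SMURF2, a ligase that marks receptors for breakdown, rose by 0.83 in DU145 (SE 0.10) and had a value of 0.11 in 22RV1, a difference that passed (edgeR adjusted p = 0.00119). SMAD4, the shared partner SMAD, rose by 0.62 in DU145 (SE 0.10). SMURF1 rose in both lines, by 0.44 and 0.56. PPM1A, a phosphatase, fell in 22RV1 by 0.34 on the log2 scale (SE 0.10).

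Antagonists were called for 4 of 9 genes in 22RV1 and 3 of 9 in DU145. FST, which binds activins and BMPs, rose by 2.23 in 22RV1 (SE 0.39) and by 1.11 in DU145 (SE 0.35). FSTL3 rose by 0.52 and 0.63, and TWSG1 fell by 0.42 and 0.67. SOSTDC1 fell in 22RV1 by 1.79 (SE 0.58) and had normalized counts of at most 2.5 in DU145.

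Further targets were called for 1 of 7 genes in 22RV1 and 5 of 7 in DU145. HEY1, a repressor shared with the Notch signal, rose by 2.27 in DU145 (SE 0.32), from 28.3 to 166.0 in vector cells and from 35.5 to 142.1 in PAGE4 cells. In 22RV1 its value was -0.21, and the difference of -2.47 passed (edgeR adjusted p = 0.00031). MSX1 rose in both lines, by 1.09 and 0.83, MSX2 rose by 0.74 in DU145, and ATOH8 fell by 1.12 in DU145. Of the 5 called targets of this list in DU145, 4 were higher and ATOH8 was lower, while among the members SMAD7 was higher and ID1, ID2 and SMAD6 were lower.

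Of the 3 E proteins that ID proteins bind, TCF3 fell by 0.24 and TCF4 by 0.56 in 22RV1, and TCF12 rose by 0.29 in DU145, where TCF4 was near 0. In the TGF-beta branch 6 of 10 genes were called in each line. TGFBR2, the type II receptor of TGF-beta, rose by 1.64 in 22RV1 (SE 0.14) and fell by 0.61 in DU145 (SE 0.11), and the difference of 2.25 passed (edgeR adjusted p = 1.79e-08). SKIL, a SMAD corepressor, rose by 0.65 and 1.02, TGFB2 fell by 0.61 in 22RV1, and TGFB3 fell by 0.68 in DU145.

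**Figure D4:**
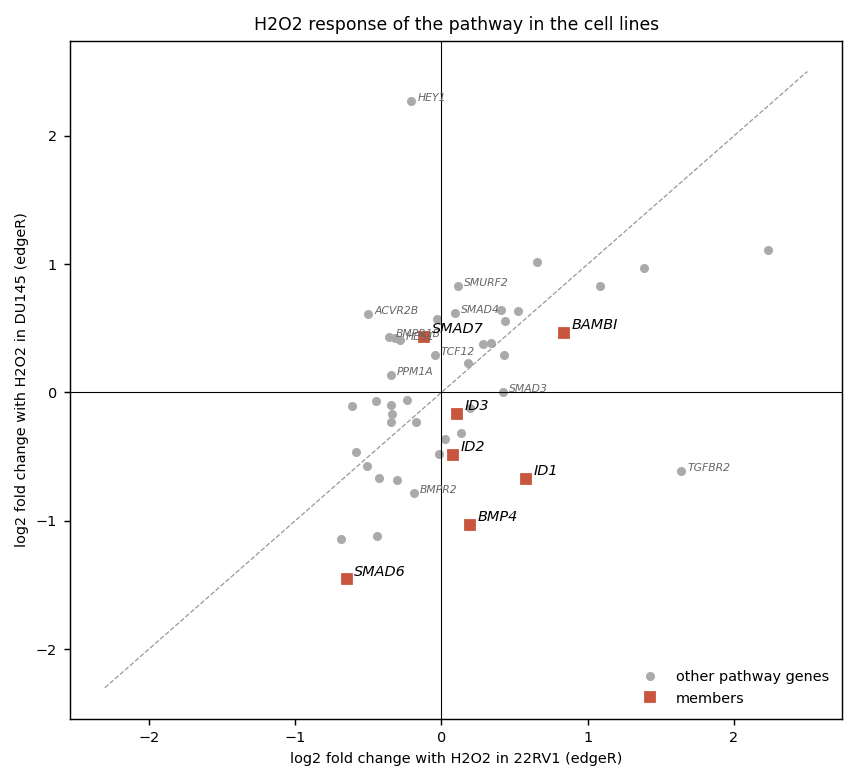
Log2 change with H2O2 in 22RV1 (horizontal) against DU145 (vertical) from the edgeR fit, for 7 members (red squares) and 41 other pathway genes (grey) whose normalized count averaged at least 10 in each line. Grey genes are named where the difference between the lines passed, and the dashed line marks equal change. ID1 and TGFBR2 lie to the lower right and HEY1 at the top.

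PAGE4 against vector is the contrast on which BMP4 had been noticed, and the members' values are given as a description. BMP7, whose normalized count averaged less than 10, was again not counted. In 22RV1 with PBS, 4 of the other members were past 1.5-fold (all genes 19.3%), and in 22RV1 with H2O2 again 4 (22.9%). In DU145 there were 2 with PBS (19.4%) and 2 with H2O2 (19.2%), and in each case 1 of these rested on at most 3 reads in either library, ID4 with PBS and BMP2 with H2O2. BMP2 and ID4 could not be read in DU145, so these counts do not compare the lines. As background over all genes, the edgeR fit of this contrast called 27 genes (0.136%), and 525 genes (2.65%) differed between the lines, from which nothing is read about the members.

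BMP4 was higher with PAGE4 in all 4 pairs. It was 7.38-fold higher in 22RV1 with PBS (17 against 118 reads, log2 interval 2.19 to 3.76), 1.57-fold higher in 22RV1 with H2O2, 1.5-fold higher in DU145 with PBS and 1.56-fold higher in DU145 with H2O2. The large first value rests on a vector library with 17 reads. BMP2 went the other way in 22RV1, 2.15-fold lower with PBS and 2.94-fold lower with H2O2. ID4 was 2.15-fold and 2.56-fold higher in the same pairs. SMAD7 was lower in all 4 pairs, 1.51-fold in 22RV1 with PBS and between 1.14-fold and 1.20-fold in the others, and BAMBI was 1.78-fold lower in 22RV1 with H2O2. BAMBI was higher in both DU145 pairs, with intervals that include 0 on the log2 scale. ID1, ID2, ID3 and SMAD6 stayed within 1.5-fold in all 4 pairs, ID1 in DU145 with PBS being the largest of the ID1 values at 1.38-fold.

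**Figure D5:**
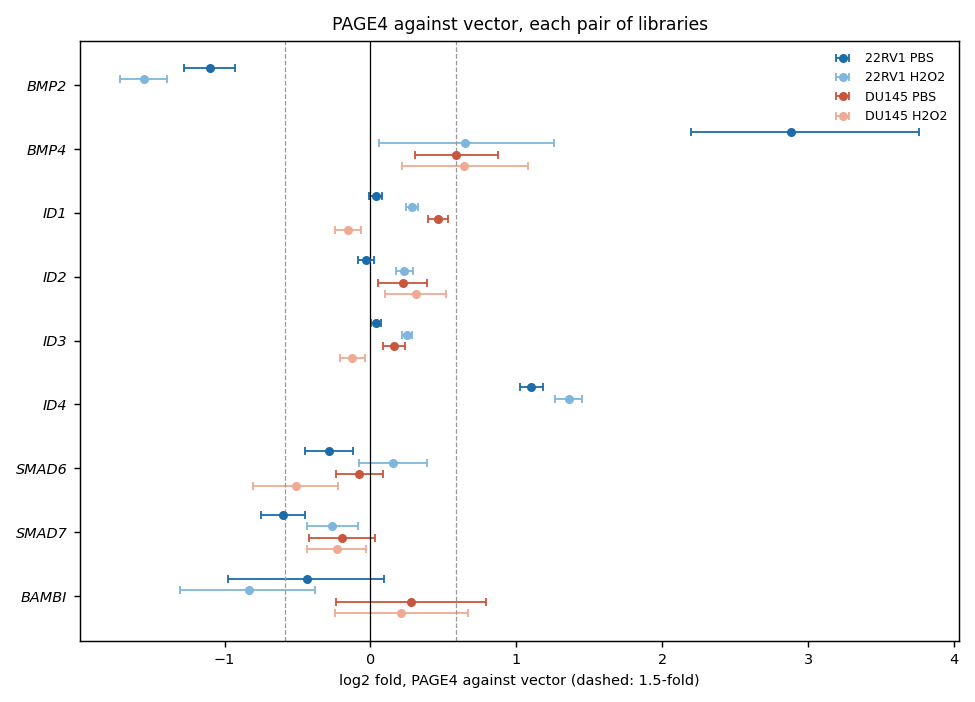
Log2 fold of the normalized count, PAGE4 against vector, for the 4 pairs of libraries, with exact 95% intervals of counting error and dashed lines at 1.5-fold. BMP7, and BMP2 and ID4 in DU145, are left out for want of reads. BMP4 lies above 0 in all 4 pairs, with the widest interval at 17 against 118 reads, and BMP2 and ID4 lie on opposite sides of 0 in 22RV1.

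The genes whose pattern over the 8 libraries was most like that of ID1, after centring each line, were BMP1 (Pearson r = 0.981), ZNF493 (0.980) and OAZ2 (0.979) among 12418 genes. For BMP4 they were C11orf73 (0.952), CH17-431G21.1 (0.939) and GNB5 (0.925) among 12419 genes. BMP1, in spite of its name, is a protease that cuts procollagen and the BMP antagonist chordin. Its normalized counts were 520, 695, 500 and 745 in 22RV1 and 1273, 950, 1561 and 939 in DU145, higher with H2O2 in the first line and lower in the second, as for ID1. These likenesses are the highest over all those genes, and the 8 libraries differ in depth and treatment for every gene. They are given as a description only.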

How the data were processed

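RNA-seq of 8 libraries was used. The authors deposited unnormalized counts, 1 table for each cell line. Their processing notes name HISAT2 2.1.0, featureCounts 1.6.0 and GRCh38. The annotation and strand setting are not given in the sources used here. Labels name Trizol and the paper a column kit, and the paper gives a lower H2O2 dose for other mRNA measurements. Totals were 25482984 to 43310401 counts.

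Genes were joined by symbol. edgeR 4.0.16 (R 4.3.3) was run with TMM, filterByExpr by line and glmQLFTest, with pairs of libraries as blocks and Benjamini-Hochberg adjustment at 0.05. Each fit used all 8 libraries, with 1 library per condition. Since nothing says that pairs came from separate cultures, p-values measure the spread between pairs. Pair folds used a pseudocount of 0.5, a mean of at least 10 and Clopper-Pearson intervals, and a floor of 3 counts. Gene lengths and coordinates were taken from GENCODE release 44, and promoter windows from RefSeq (GRCh38.p14). Members and lists were chosen with earlier results of these data known. All members are named, with at most 4 called genes per pathway list by size of change, and the 3 genes most like ID1 and BMP4 in pattern. HJV was found under its older symbol. Fits were tested on simulated data. Alternatives were DESeq2 1.42.0 size factors, total counts, no filter, a mean of at least 50, the DESeq2 Wald test, an additive fit, a pseudocount of 1, a fold over 2 and leaving out each pair. Some genes of the marker list are not reported here.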

Additional observations from a re-analysis of the deposited data

Results flagged for a closer look

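The H2O2 response of 3 members differed between 22RV1 and DU145 by the interaction term of the edgeR quasi-likelihood fit over 19784 genes, of which 21.0% differed. The difference on the log2 scale, 22RV1 minus DU145, was 1.25 for ID1 (adjusted p = 6.07e-06), which was higher with H2O2 in 2 of 2 pairs of 22RV1 and lower in 2 of 2 pairs of DU145. It was 0.56 for ID2 (adjusted p = 0.00696) and 0.81 for SMAD6 (adjusted p = 0.0217), which was lower with H2O2 in all 4 pairs. Over the 9 alternatives the adjusted p reached at most 0.000196 for ID1, 0.0513 for ID2 and 0.214 for SMAD6. The cell line and any difference in how its cultures were handled cannot be told apart.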

How the results depend on the processing

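Pairing by replicate was not possible because the labels give no replicate numbers to pair by. The fits paired libraries by condition instead, and their blocks are pairs of conditions within a line or between the lines. Leaving out each pair in turn gave H2O2 fits with 20968 to 21999 genes tested, among them 9 members. The H2O2 calls common to the pairs moved to between 1963 and 3848 genes (4457 of 19784 with all pairs) and 0 to 1 members. Those in 22RV1 moved to 3858 to 6283 genes and 1 to 5 members (6443 of 19784 genes with all pairs). Those in DU145 moved to 4856 to 9369 genes and 3 to 5 members (8338 of 19784 genes with all pairs). Those of the difference moved to 1759 to 4342 genes. The PAGE4 calls over all genes moved to 10 to 75, and those of the difference between lines to 160 to 1289. Members are not counted there, since this contrast was used to choose them. The DESeq2 Wald test called 2 of 9 members for the common H2O2 response (5654 of 19784 genes) and 3 of 9 in DU145 (6746 of 19784 genes). For PAGE4 it called 81 genes. With no filter the PAGE4 calls were 483 genes and, for the difference, 806 genes. For the PAGE4 calls common to the pairs, total counts gave 28 genes and the additive fit 3. With a fold over 2, H2O2 left BMP4 (2.93-fold) and BAMBI (2.02-fold) in 22RV1 vector cells and 0 members in 22RV1 PAGE4 cells. In DU145 vector cells H2O2 left BMP4 (2.08-fold lower), SMAD6 (2.37-fold lower) and ID4 with 0 against 1 read. In DU145 PAGE4 cells H2O2 left BMP4 (2.00-fold lower), SMAD6 (3.20-fold lower) and BMP2 with 1 against 5 reads. The ID4 and BMP2 values there are not read as changes. PAGE4 left BMP2 (2.15-fold lower), BMP4 (7.38-fold higher) and ID4 (2.15-fold higher) in 22RV1 with PBS. With H2O2 it left BMP2 (2.94-fold lower) and ID4 (2.56-fold higher) there. In DU145 it left only ID4 with 0 against 1 read (PBS) and BMP2 with 1 against 3 reads (H2O2), neither read as a change. The share of all genes past this fold is not given, so nothing is read from these numbers of members. The sign of H2O2 values in 22RV1 that were not called turned when a pair was left out, over ranges of -0.69 to 1.58 for BMP4, -0.054 to 0.21 for ID2 and -0.28 to 0.057 for SMAD7, and with total counts for SMAD7 (0.054). The cause of these moves was not tested. Where a pair was left out, the libraries, the genes tested and the scaling changed together. Total counts also turned the split of 22RV1 H2O2 calls from 2538 higher and 3905 lower to 4262 higher and 2384 lower. Depth limits BMP7 in all libraries and BMP2 and ID4 in DU145.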
